A study of Mus musculus with 4 samples.

Results

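The myeloid cytokine receptors and Cd14 form a group of 9 genes: Csf3r, Csf1r, Csf2ra, Csf2rb, Csf2rb2, Il3ra, Il6ra, Il6st and Cd14. They were taken from the value table as the probe sets whose platform annotation names exactly 1 gene among these symbols, which gave 9 probe sets of 35556, 1 per gene. No other probe set named a member beside another gene. Each of 4 RNA samples was hybridised to its own Affymetrix Mouse Gene 1.0 ST array, whose probes lie along whole transcripts, and values are log2 after RMA, a procedure that corrects background, normalizes between arrays and summarises the probes of a set. The RNA came from sorted Flt3-negative LSK bone marrow cells (lineage-negative, Sca-1 and c-Kit positive), a gate that enriches blood stem cells. Its input was given as 800 pg to 50 ng for every sample, and the amount behind each array is not given.

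The GABPalpha-deficient group (2 arrays) came from Mx1Cre-GABPa(FL/-) mice, which carried a floxed and a null Gabpa allele. The control group (2 arrays) came from Mx1Cre-GABPa(FL/+) mice, with a floxed and a wild-type allele, so the controls were not fully wild-type. All mice were 6 to 8 weeks old, from a C57/BL6 backcross of 4 generations, carried Mx1Cre and were given pIpC. Their cells were taken on day 4 after the last dose. Mx1-Cre is driven by an interferon-responsive promoter that is not limited to stem cells, and pIpC, a double-stranded RNA analogue, induces interferon by itself. The labels do not give the number of animals behind each sample, so the tests reflect the spread between these samples, which may be technical. GABPalpha-deficient replicates 1 and 2 are called deficient replicate 1 and deficient replicate 2 below, and values of a group are given in that order.

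These receptors let blood progenitors and mature myeloid cells respond to colony-stimulating factors and interleukins. Csf3r binds G-CSF and Csf1r, a receptor tyrosine kinase, binds M-CSF and IL-34. The receptors for GM-CSF and IL-3 each join a ligand-specific alpha chain, Csf2ra or Il3ra, to the common beta chain Csf2rb, and in mice a second beta chain, Csf2rb2, serves IL-3 alone. IL-6 binds Il6ra, which then engages the signalling chain gp130, encoded by Il6st. Except for Csf1r, which is itself a kinase, the cytokine receptors signal through JAK kinases and STAT factors. CD14 is no cytokine receptor: it is a surface protein of monocytes and macrophages that hands bacterial lipopolysaccharide to TLR4.

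Promoters of 3 of the genes are shown because these genes had the lowest difference (Csf3r), the highest (Il6st) and the one nearest to 0 (Il3ra). GABP belongs to the ETS family, whose members bind a GGAA core, and capitals mark every GGAA on either strand (TTCC on the strand shown). Each sequence is 300 bases from RefSeq's table for GRCm38.p6, from 250 bases before to 50 after the gene's start, written 5′ to 3′ on the gene's strand. The Csf3r window is chr4:126024409-126024708 (plus strand), the Il6st window chr13:112463820-112464119 (plus strand) and the Il3ra window chr14:14346245-14346544 (plus strand).
Csf3r: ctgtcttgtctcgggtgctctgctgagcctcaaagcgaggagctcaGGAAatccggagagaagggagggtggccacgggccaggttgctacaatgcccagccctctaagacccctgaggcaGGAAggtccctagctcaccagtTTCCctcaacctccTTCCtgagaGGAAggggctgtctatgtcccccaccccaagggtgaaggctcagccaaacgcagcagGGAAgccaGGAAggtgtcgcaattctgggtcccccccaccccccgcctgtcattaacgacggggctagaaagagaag
Il6st: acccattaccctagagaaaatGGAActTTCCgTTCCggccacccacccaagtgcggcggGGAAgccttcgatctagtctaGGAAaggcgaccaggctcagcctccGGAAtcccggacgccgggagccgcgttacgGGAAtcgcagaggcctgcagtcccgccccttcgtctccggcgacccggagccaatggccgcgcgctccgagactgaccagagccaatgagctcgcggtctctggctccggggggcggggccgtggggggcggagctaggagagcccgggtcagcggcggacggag
Il3ra: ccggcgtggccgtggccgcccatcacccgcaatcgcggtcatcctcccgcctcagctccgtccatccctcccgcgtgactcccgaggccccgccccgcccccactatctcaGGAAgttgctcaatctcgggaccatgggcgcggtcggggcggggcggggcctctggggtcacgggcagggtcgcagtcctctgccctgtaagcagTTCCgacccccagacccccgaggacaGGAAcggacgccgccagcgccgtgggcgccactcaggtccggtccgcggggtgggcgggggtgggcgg
GGAA occurred 7 times in the Csf3r window, 7 times in the Il6st window and 3 times in the Il3ra window. Of 32851 promoter windows in the table, 96.0% held at least 1 GGAA, the median was 3, and 8.02% held 7 or more. The longer CCGGAA, a form preferred by GABP that contains the core, occurred 2 times in the Il6st window and in no other member window. Of all windows, 14.9% held at least 1 and 3.59% held 2 or more. GAGGAA, a form often bound by PU.1 that also contains the core, occurred 1 time each in the Csf3r and Il6ra windows. It occurred 2 times each in those of Csf2ra and Csf2rb2. At least 1 was held by 28.3% of all windows, and 2 or more by 4.82%. The promoter table held 6 of the 9 members, and Csf1r, Csf2rb and Cd14 were not among them. A match of these letters is a description and not a binding site. Csf3r and Il6st were shown because they lay at opposite ends of the differences, so their equal count of cores says nothing about direction.

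Across all 35556 probe sets, 0 passed limma's test at an adjusted p under 0.05 (0.0%), and the lowest adjusted p was 0.169. Every value below is therefore a description of 2 arrays against 2. At an unadjusted p under 0.05, 2360 probe sets were higher and 1865 lower on the GABPalpha-deficient arrays (11.9% in all), a split that cyclic loess turned to 1191 higher and 2349 lower. Subtracting array medians gave 1537 higher and 2185 lower, and the brighter 50% of probe sets alone gave 964 higher and 1348 lower. The groups did not overlap for 52.9% of probe sets. Over all probe sets the median log2 difference was 0.15 and −0.0045 after cyclic loess, so members are also placed against it. An exact permutation test of 2 arrays against 2 cannot give a two-sided p below 0.333. Gabpa itself read 6.43 and 7.85 on the GABPalpha-deficient arrays, against 8.43 and 7.28 on the control arrays, so its probe set did not separate the groups. Of the sorting markers, Kit read 7.70 and 8.50 on the GABPalpha-deficient arrays, against 10.21 and 10.21 on the control arrays. Flt3, whose protein the gate excludes, read 5.68 and 5.95 on the GABPalpha-deficient arrays, against 8.43 and 9.26 on the control arrays. Both were lower on the GABPalpha-deficient arrays, and Ly6a, the Sca-1 gene, was not analysed here.

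Of the 9 members, 0 passed the adjusted threshold. At an unadjusted p under 0.05, 1 was lower (Csf3r, background 5.25% of probe sets) and 1 was higher (Cd14, background 6.64%). Neither call was firm: the unadjusted p of Cd14 in limma's fit was 0.016 and became 0.063 after cyclic loess, 0.053 without deficient replicate 1, 0.068 without deficient replicate 2 and 0.064 without control replicate 2, and that of Csf3r, 0.011, became 0.0501 without deficient replicate 2. The groups did not overlap for 5 members, 3 higher (background 38.9%) and 2 lower (background 14.0%), which is near the 52.9% of all probe sets. The median difference of the 9 was 0.029, against 0.15 for all probe sets, it was −0.34 without deficient replicate 1 and ran from 0.0073 to 0.10 without any other array, and the differences ran from −1.04 to 0.99. The group thus had no common direction, and its members are described singly.

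**Figure D1:**
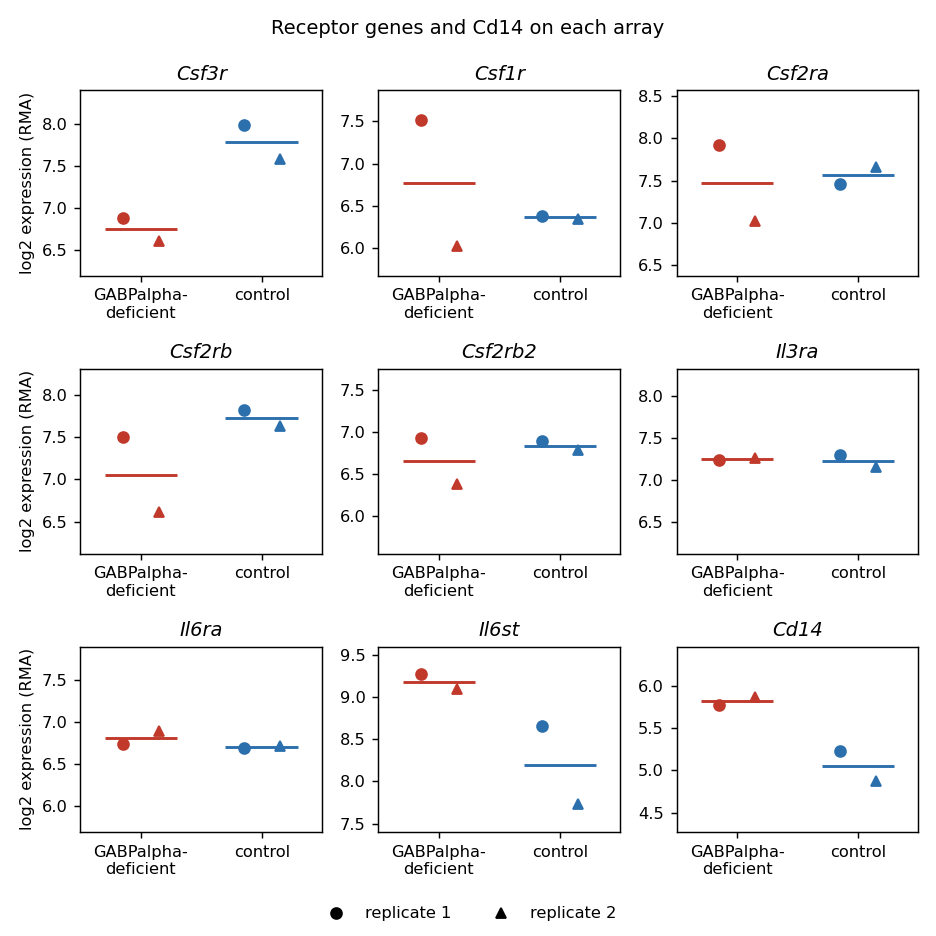
Log2 expression of each gene on each array, with GABPalpha-deficient arrays left of control arrays. Circles are replicate 1, triangles replicate 2 and lines group means, and every panel spans the same log2 range. Csf3r is lower and Il6st and Cd14 are higher on both GABPalpha-deficient arrays, while the 2 GABPalpha-deficient arrays lie far apart for Csf1r, Csf2ra and Csf2rb.

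Csf3r, the receptor for G-CSF that drives neutrophil production, read 6.89 and 6.61 on the GABPalpha-deficient arrays, against 7.99 and 7.58 on the control arrays. Both GABPalpha-deficient arrays lay below both control arrays, with a clear gap between the groups. The means were 6.75 ± 0.20 on the GABPalpha-deficient arrays and 7.79 ± 0.29 on the control arrays (SD, n = 2 each). The log2 difference was −1.04 (SE 0.22, limma adjusted p = 0.361), or 0.487 times the control level. Of all probe sets, 5.84% had a lower difference. With any 1 array left out, the Csf3r difference stayed between −1.24 and −0.83. In a bulk sample, fewer cells that express a gene and less RNA of it per cell cannot be told apart. Csf3r is carried by early progenitors as well as by neutrophils, and markers of both were measured. Of the measured sorting gate and stem cell markers, 9 of 9 were below 0, as were 6451 of all 19938 genes. At an unadjusted p under 0.05, 7 of 9 were lower (background 6.36% of genes). The summed linear level of these 9 was 1250 and 1521 on the GABPalpha-deficient arrays, against 6917 and 6539 on the control arrays. Of 15 neutrophil markers, 10 were above 0, as were 13487 of all 19938 genes. Their median difference was 0.55, against 0.16 for all genes. The groups did not overlap for 9 in the higher direction and 2 in the lower (background 42.9% and 15.2% of genes). The summed linear levels of the 15, in which Mpo, the brightest, weighs most, were 12995 and 10068 on the GABPalpha-deficient arrays, against 13434 and 11737 on the control arrays. At an unadjusted p under 0.05, 2 were higher (Mmp9 by 0.62 and Lcn2 by 1.49) and 1 lower (Mpo, myeloperoxidase, by −0.86). These shares were near the background of 6.99% higher and 6.36% lower. Without deficient replicate 1 these counts were 4 higher and 4 lower, 1 was higher without deficient replicate 2 or control replicate 2, and 0 were lower without either control array. The part of these markers in the Csf3r difference was not tested.

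Csf1r, which controls the survival of monocytes and macrophages, did not separate the groups. It read 7.52 and 6.02 on the GABPalpha-deficient arrays, against 6.38 and 6.34 on the control arrays. The 2 GABPalpha-deficient arrays thus enclosed the control arrays, 1 above and 1 below. The difference was 0.41 (SE 0.56, limma adjusted p = 0.710), with an interval of −1.18 to 1.997 (unadjusted 95% interval of the fit). Its sign depended on a single array: it was −0.34 without deficient replicate 1 and 1.16 without deficient replicate 2.

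The gap between the 2 GABPalpha-deficient arrays was 1.50 for Csf1r, and 95.5% of all probe sets had a smaller gap there. Between the control arrays the Csf1r gap was 0.041. Some other macrophage genes, chosen here after their values were seen, were also higher on deficient replicate 1 than on deficient replicate 2. C1qc, a complement subunit of macrophages, read 8.90 and 6.28 on the GABPalpha-deficient arrays, against 6.38 and 6.45 on the control arrays. Cd68, a lysosomal protein of macrophages, read 9.07 and 7.95 on the GABPalpha-deficient arrays, against 7.78 and 8.03 on the control arrays. Adgre1, which encodes F4/80, read 6.79 and 5.96 on the GABPalpha-deficient arrays, against 5.70 and 5.56 on the control arrays. Over the whole list, 10 of 17 monocyte and macrophage markers were higher on deficient replicate 1 than on deficient replicate 2, against 9460 of all 19938 genes. The part of these cells in the Csf1r gap was not tested.

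The alpha and beta chains of the GM-CSF receptor also differed between the 2 GABPalpha-deficient arrays. Csf2ra, the GM-CSF alpha chain, read 7.93 and 7.02 on the GABPalpha-deficient arrays, against 7.46 and 7.66 on the control arrays, so that the control arrays again lay between the GABPalpha-deficient ones. Its difference was −0.092 (SE 0.36, limma adjusted p = 0.904; interval −1.12 to 0.94), and it was −0.55 without deficient replicate 1 and 0.36 without deficient replicate 2.

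Csf2rb, the beta chain shared by the GM-CSF, IL-3 and IL-5 receptors, read 7.50 and 6.61 on the GABPalpha-deficient arrays, against 7.83 and 7.64 on the control arrays. Both GABPalpha-deficient arrays lay below both control arrays, deficient replicate 1 by little and deficient replicate 2 by much. The means were 7.06 ± 0.63 on the GABPalpha-deficient arrays and 7.73 ± 0.13 on the control arrays (SD, n = 2 each), a difference of −0.68 (SE 0.36, limma adjusted p = 0.459). Without deficient replicate 2 it shrank to −0.23, and without deficient replicate 1 it was −1.12.

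Csf2rb2, the mouse beta chain of the IL-3 receptor, read 6.93 and 6.38 on the GABPalpha-deficient arrays, against 6.89 and 6.79 on the control arrays. Only deficient replicate 2 lay apart, below the other 3 arrays, and the difference of −0.18 (SE 0.24, limma adjusted p = 0.700) became 0.091 without that array. Csf2rb2 and Csf2rb lie near each other on chromosome 15 with 1 listed gene between them and have very similar coding sequences. How far their probe sets share signal was not tested.

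Csf2ra, Csf2rb and Csf2rb2 thus had their lowest value of the 4 arrays on deficient replicate 2, as did 5 of the 9 members in all, Csf1r and Csf3r being the others. Their gaps between the GABPalpha-deficient arrays were 0.91, 0.90 and 0.55 on the log2 scale, larger than those of 89.0%, 88.7% and 77.8% of all probe sets. Early granule genes, again chosen after their values were seen, were also low on that array. Elane, neutrophil elastase, read 9.38 and 8.08 on the GABPalpha-deficient arrays, against 9.28 and 9.45 on the control arrays. Prtn3, proteinase 3 of the same granules, read 9.46 and 7.99 on the GABPalpha-deficient arrays, against 9.48 and 9.30 on the control arrays. Ctsg, cathepsin G, read 11.08 and 10.01 on the GABPalpha-deficient arrays, against 10.98 and 11.02 on the control arrays. Cebpa, a transcription factor needed to form granulocyte and monocyte progenitors, read 8.87 and 7.86 on the GABPalpha-deficient arrays, against 8.68 and 8.77 on the control arrays. For each of these 4 genes, deficient replicate 1 lay close to the controls and deficient replicate 2 lay 1.00 to 1.47 below it. Mpo, a further granule gene of the list, did not share this pattern. It read 11.85 and 11.47 on the GABPalpha-deficient arrays, against 12.48 and 12.56 on the control arrays. Both GABPalpha-deficient arrays thus lay below both control arrays for Mpo, with a gap of 0.39 between them. Of all 15 neutrophil markers, 8 were higher on deficient replicate 1 than on deficient replicate 2, close to the share of all genes (9460 of 19938), and Lcn2, Ltf, Mmp8, Cd177, S100a9, Ly6g and Ngp went the other way. Lcn2, a late granule gene, read 7.22 and 8.51 on the GABPalpha-deficient arrays, against 6.41 and 6.35 on the control arrays. The part of granulocyte progenitors in these gaps was not tested.

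**Figure D2:**
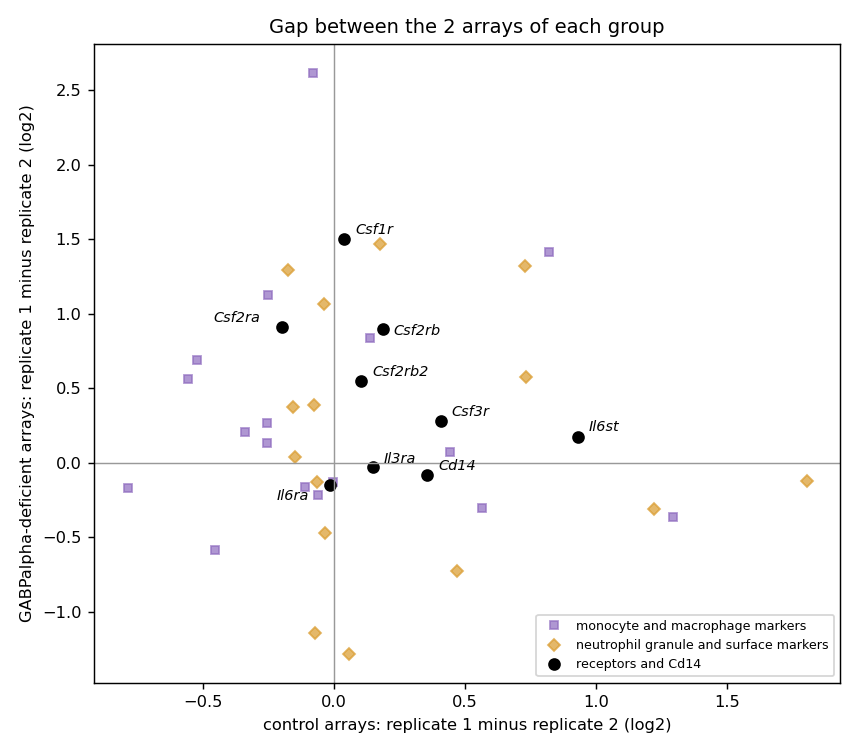
Replicate 1 minus replicate 2 in log2 units for the GABPalpha-deficient arrays (vertical axis) against the same for the control arrays (horizontal axis). Black circles are the receptors and Cd14, squares monocyte and macrophage markers and diamonds neutrophil markers. Csf1r, Csf2ra, Csf2rb and Csf2rb2 stand high on the vertical axis (0.55 to 1.50) and near 0 on the horizontal one, while Il6st stands out on the horizontal axis (0.93).

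Il3ra, the IL-3 alpha chain, read 7.24 and 7.27 on the GABPalpha-deficient arrays, against 7.30 and 7.15 on the control arrays. The groups overlapped and the 4 arrays lay close together. The difference was 0.029 (SE 0.15, limma adjusted p = 0.926), with an interval of −0.38 to 0.44. A p over the threshold does not show that its level was equal in the groups.

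Il6ra, which binds IL-6, read 6.74 and 6.89 on the GABPalpha-deficient arrays, against 6.70 and 6.71 on the control arrays. Both GABPalpha-deficient arrays lay above both control arrays by a small margin. The difference of 0.11 (SE 0.15, limma adjusted p = 0.696; interval −0.30 to 0.52) was below the median of all probe sets by 0.034.

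Il6st, the gp130 chain shared by the receptors of the IL-6 family, read 9.27 and 9.10 on the GABPalpha-deficient arrays, against 8.66 and 7.73 on the control arrays. Both GABPalpha-deficient arrays lay above both control arrays, and the wide spread was between the controls. The means were 9.19 ± 0.12 on the GABPalpha-deficient arrays and 8.19 ± 0.66 on the control arrays (SD, n = 2 each). The difference was 0.99 (SE 0.37, limma adjusted p = 0.421), or 1.99 times the control level, and 0.85 above the median of all probe sets. Its size turned on the controls: the Il6st difference was 0.53 without control replicate 2 and 1.46 without control replicate 1. The gap between the control arrays, 0.93, was larger than that of 91.8% of all probe sets. Il6st is made by stromal and endothelial cells as well as by blood cells, and the c-Kit positive gate is meant to leave out most stromal cells. Of 13 stromal and endothelial markers, 7 were higher and 0 lower at an unadjusted p under 0.05 (background 6.99% and 6.36% of genes). The count of higher markers was 2 without control replicate 1, 3 without control replicate 2 and 4 after cyclic loess, and 11 to 12 of 13 stayed above 0. In the fit to 4 arrays 11 of the 13 were above 0, as were 13487 of all 19938 genes, while Pdgfrb and Emcn differed by −0.50 and −0.17. The median difference of the 13 was 0.49, against 0.16 for all genes. Their summed linear level was 3131 and 2130 on the GABPalpha-deficient arrays, where Sparc weighs most, against 891 and 934 on the control arrays. Sparc, a matrix protein, differed by 3.80, Cxcl12, a niche chemokine, by 1.46, and Kdr, a VEGF receptor of endothelium, by 0.82. The part of these cells in the Il6st difference was not tested.

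Cd14 read 5.78 and 5.87 on the GABPalpha-deficient arrays, against 5.23 and 4.87 on the control arrays. Both GABPalpha-deficient arrays lay above both control arrays and close to each other. The means were 5.83 ± 0.061 on the GABPalpha-deficient arrays and 5.05 ± 0.25 on the control arrays (SD, n = 2 each), a difference of 0.78 (SE 0.19, limma adjusted p = 0.385), or 1.71 times the control level. Of all probe sets, 96.2% had a lower difference, and with any 1 array left out it ran from 0.60 to 0.96. Cd14 lay in the dimmer 50% of probe sets, where no detection call was used, and cyclic loess lowered its difference to 0.56. Cd14 was higher on both GABPalpha-deficient arrays by similar amounts, unlike Csf1r, although both genes mark the monocyte lineage. The lineage-negative gate is meant to leave out mature macrophages. Of 17 monocyte and macrophage markers, 10 were higher and 0 lower at an unadjusted p under 0.05 (background 6.99% and 6.36% of genes). The higher count was 5 without deficient replicate 1, without control replicate 1 or after cyclic loess, and 6 without control replicate 2. Of the 17, 13 did not overlap between the groups in the higher direction (background 42.9% of genes, and 58.1% in either direction). Their summed linear level was 4098 and 3077 on the GABPalpha-deficient arrays, against 2183 and 1974 on the control arrays. Spic, a transcription factor of red pulp macrophages, differed by 1.47 and Cd5l, a protein secreted by macrophages, by 2.09. Vcam1, an adhesion molecule of macrophages and stroma, differed by 2.10. Of the 17, 15 were above 0, against 13487 of all 19938 genes, while Ccr2 and Lyz2 differed by −0.33 and −0.31. The part of macrophages in the Cd14 difference was not tested.

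**Figure D3:**
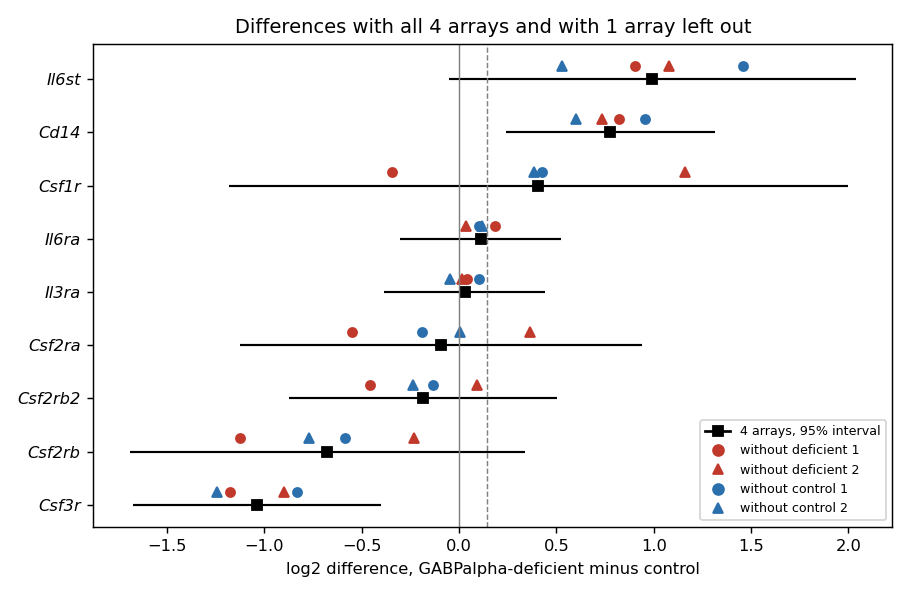
Log2 difference, GABPalpha-deficient minus control, for each gene. Squares with bars are the fit to 4 arrays with its unadjusted 95% interval, coloured symbols are fits with 1 array left out, the solid line is 0 and the dashed line the median of all probe sets (0.15). Csf3r, Il6st, Cd14, Csf2rb and Il6ra keep their side of 0 in every fit shown, and Csf1r, Csf2ra, Csf2rb2 and Il3ra do not.

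The ligands of these receptors were measured by 10 probe sets, and 0 passed the adjusted threshold. At an unadjusted p under 0.05, 2 of the 10 were higher and 0 lower (background 6.99% and 6.36% of genes), which became 1 without either GABPalpha-deficient array and 0 without control replicate 1. The median difference was 0.22, against 0.16 for all genes. It was 0.0016 after cyclic loess, where that of all genes was −0.00073, and 0.15 to 0.30 with 1 array left out. Only 1 of the 10, Osm at −0.12, was among the brighter probe sets. The ligands thus had no direction that held across normalizations. Csf2, which encodes GM-CSF, read 6.02 and 5.73 on the GABPalpha-deficient arrays, against 4.98 and 5.13 on the control arrays (difference 0.82, SE 0.18, limma adjusted p = 0.363). Il34, the alternative ligand of Csf1r, differed by 0.54 (SE 0.18) and Il11, a gp130 cytokine, by 0.43 (SE 0.18). The ligand of Csf3r, Csf3, differed by 0.11 and Csf1 by 0.26. Of 5 other measured chains that pair with the common beta chain or gp130, 5 were above 0, as were 13487 of all 19938 genes, and 0 passed at an unadjusted p under 0.05, with Cntfr at 0.46, Lifr at 0.52 and Osmr at 0.25. Their median was 0.39, or 0.24 above that of all probe sets, and it was 0.23 without deficient replicate 2, without control replicate 2 or after cyclic loess.

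Among 10 measured kinases, STATs and adaptors, which carry the signal from the receptors, 0 passed the adjusted threshold, 3 were lower at an unadjusted p under 0.05 (background 6.36% of genes) and 9 were below 0, against 6451 of all 19938 genes. The lower count was 1 without control replicate 1 and 2 without control replicate 2. The median difference was −0.82, or −0.97 relative to all probe sets, against 0.16 for all genes. It was −0.41 without control replicate 1 and −0.55 without deficient replicate 1. Stat3, the main STAT of gp130 and of Csf3r, read 7.35 and 7.92 on the GABPalpha-deficient arrays, against 8.78 and 8.60 on the control arrays (difference −1.05, SE 0.26, limma adjusted p = 0.385). Gab2, a docking adaptor, differed by −1.17 (SE 0.22) and Ptpn11, the phosphatase SHP2, by −0.75 (SE 0.26). Stat5a and Stat5b, which act below the common beta chain, differed by −0.14 and −0.15.

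Of 13 inhibitors of cytokine signalling, 2 were higher and 3 lower at an unadjusted p under 0.05 (background 6.99% and 6.36% of genes), and 0 passed the adjusted threshold. The higher count was 1 without any 1 array, and the lower count was 1 without deficient replicate 1, 5 without deficient replicate 2 and 2 without control replicate 1. Socs3, the feedback inhibitor of gp130 and Csf3r signalling, read 7.12 and 7.17 on the GABPalpha-deficient arrays, against 6.17 and 6.24 on the control arrays. Its groups were tight and did not overlap (difference 0.94, SE 0.14, limma adjusted p = 0.280). Inpp5d, the lipid phosphatase SHIP1, differed by −0.99 (SE 0.19) and Ptpn6, the phosphatase SHP1, by −0.60 (SE 0.14). The list's median was −0.25, and it was 0.027 without control replicate 1, −0.58 without control replicate 2, −0.38 without deficient replicate 2 and −0.44 after cyclic loess. Of 11 STAT3 and STAT5 target genes, 1 was higher and 2 lower at an unadjusted p under 0.05, near the same background. The higher count was 0 without deficient replicate 1 or either control array, and the lower count was 1 without control replicate 2. The median was −0.024, and it was −0.24 after cyclic loess, −0.16 without control replicate 1, −0.11 without deficient replicate 1, −0.0081 without control replicate 2 and −0.0045 without deficient replicate 2. Ccnd2, cyclin D2, differed by −1.54, the survival gene Bcl2l1 by −0.97 and Id1, an inhibitor of DNA binding, by 0.96.

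The partners of CD14 did not share its direction as a list. Of 14 measured genes of lipopolysaccharide recognition and signalling, 1 was higher and 3 lower at an unadjusted p under 0.05 (background 6.99% and 6.36% of genes), 0 passed the adjusted threshold, and the median was −0.093. Without any 1 array 0 were higher, and 0 were lower without control replicate 1. The median was −0.59 among the brighter probe sets, −0.23 after cyclic loess, −0.32 without deficient replicate 2 and −0.18 without control replicate 2. Lbp, which brings lipopolysaccharide to CD14, differed by −0.73 (SE 0.15), Myd88, the adaptor of the toll-like receptors, by −0.59 (SE 0.18), and Tlr1 by 0.50 (SE 0.14). Tlr4, the receptor that CD14 serves, read 3.60 and 4.76 on the GABPalpha-deficient arrays, against 4.12 and 3.76 on the control arrays, and its partner Ly96 read 7.57 and 5.39 on the GABPalpha-deficient arrays, against 6.33 and 4.45 on the control arrays. Both overlapped between the groups.

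Of 14 myeloid transcription factors, 4 were lower and 0 higher at an unadjusted p under 0.05 (background 6.36% and 6.99% of genes), and 0 passed the adjusted threshold. Without either control array the lower count was 1. Spi1 encodes PU.1, an ETS factor known to act on the Csf1r and Csf3r genes. It read 7.59 and 7.72 on the GABPalpha-deficient arrays, against 8.79 and 8.69 on the control arrays (difference −1.09, SE 0.15, limma adjusted p = 0.270). Runx1 differed by −1.55 (SE 0.39) and Cbfb, its binding partner, by −0.89 (SE 0.23). Cebpb, Maf, Klf4 and Cebpd had differences of 0.42, 0.31, 0.27 and 0.61, and the list's median was −0.044. The sign of that median was not settled: it was 0.10 without deficient replicate 2, 0.051 without control replicate 2, −0.24 without deficient replicate 1, −0.14 without control replicate 1 and −0.12 after cyclic loess.

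**Figure D4:**
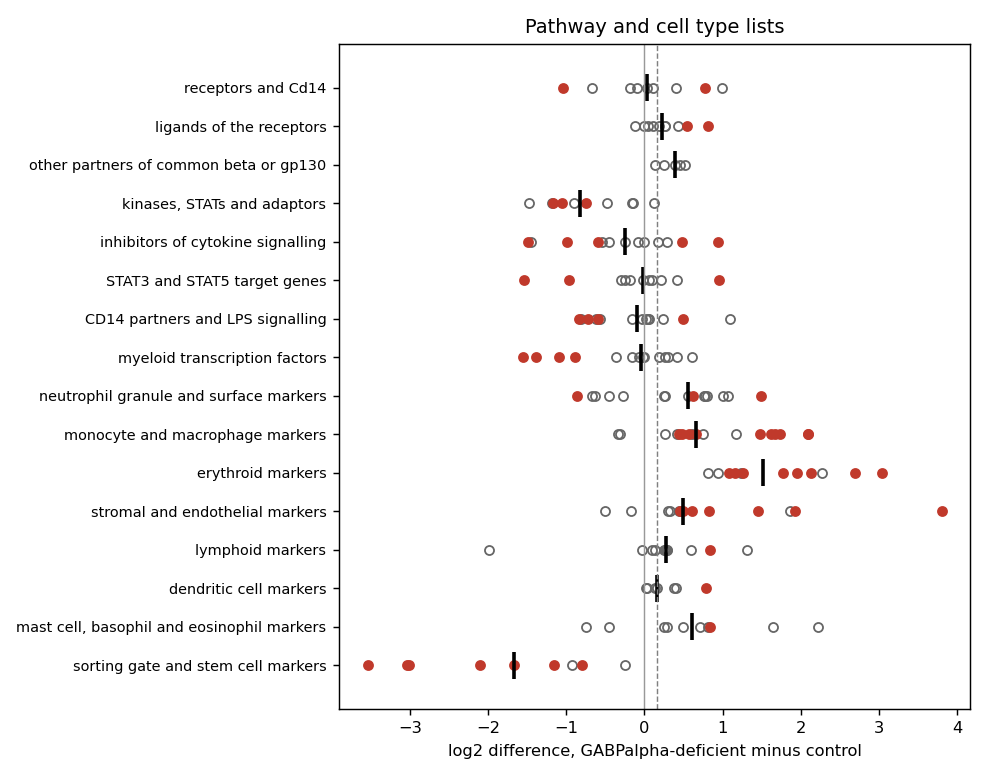
Log2 difference, GABPalpha-deficient minus control, of every measured gene of each list, with filled circles for genes at an unadjusted p under 0.05, open circles for the others, black bars for list medians and a dashed line for the median of all genes (0.16). The receptors and Cd14 spread on both sides of 0. Of the erythroid markers 12 of 12 lie above 0, as do 13487 of all 19938 genes. Of the sorting gate and stem cell markers 9 of 9 lie below 0, as do 6451 of all genes.

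Markers of other cells gave further measured context for the receptors, beside a background of 6.99% of genes higher and 6.36% lower. The lineage-negative gate is meant to leave out many mature blood cells, and which of the kinds below it removed was not tested. Of 12 measured erythroid markers, 8 were higher and 0 lower at an unadjusted p under 0.05, with a median of 1.51, and the higher count was 6 to 12 with 1 array left out. All 12 were above 0 in the fit to 4 arrays, but without deficient replicate 2, 10 were above 0 and 2 below. Tfrc read 7.39 and 10.18 on the GABPalpha-deficient arrays, against 7.78 and 7.32 on the control arrays. Epb42 read 5.19 and 7.22 on the GABPalpha-deficient arrays, against 5.20 and 5.33 on the control arrays. The 12 markers had summed linear levels of 12906 and 14492 on the GABPalpha-deficient arrays, against 4770 and 4591 on the control arrays. Ank1, the red cell ankyrin, differed by 2.13, Klf1, an erythroid transcription factor, by 1.77, and Ermap, a red cell surface protein, by 2.69. Mast cell, basophil and eosinophil markers, which belong to cells that use the common beta chain, gave 1 higher and 0 lower of 10, near the background, with a median of 0.60 that was 0.30 without deficient replicate 2. Their higher count was 4 without deficient replicate 1, 3 without deficient replicate 2 and 0 without control replicate 1, where 1 was lower. Mcpt8, a basophil protease, differed by 0.83, Cma1, a mast cell chymase, by 1.65, and Prg2, an eosinophil granule protein, by 0.81. Cma1 read 7.70 and 5.90 on the GABPalpha-deficient arrays, against 5.17 and 5.15 on the control arrays. Of the 10, 8 were above 0, while Cpa3 and Hdc differed by −0.75 and −0.45. Dendritic cell markers gave 1 higher and 0 lower of 7, and lymphoid markers 1 higher and 0 lower of 12, both near the background. The dendritic median was 0.16, and it was −0.026 after cyclic loess, 0.38 without deficient replicate 2, 0.074 without control replicate 1 and 0.42 without control replicate 2. The lymphoid median was 0.27, and it was 0.071 without deficient replicate 2 and 0.075 after cyclic loess. With 1 array left out, the dendritic count was 0 to 1 higher and the lymphoid count 1 to 3 higher and 0 to 1 lower. Among these, Zbtb46 of dendritic cells differed by 0.78 and Cd79a of B cells by 0.84. Nkg7, also on the lymphoid list, differed by −1.98. It read 9.45 and 7.44 on the GABPalpha-deficient arrays, against 10.53 and 10.33 on the control arrays. The part of these cells in the receptors' values was not tested.

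The genes whose profile over the 4 arrays was most like a member's were found by the Euclidean distance between log2 profiles centred on their own means. For Csf3r they were Tnip3 (distance 0.039) and Fyttd1 (0.051), which differed by −1.04 and −1.06. For Csf1r they were Prpf19 (0.096) and Smim20 (0.12), for Csf2rb Arhgap4 (0.056) and Pcp4l1 (0.060), and for Csf2rb2 Aldh1l1 (0.059) and Anpep (0.064). Prpf19 read 9.26 and 7.80 on the GABPalpha-deficient arrays, against 8.03 and 8.06 on the control arrays, the same pattern of deficient replicate 1 above and deficient replicate 2 below the controls as Csf1r. Cd14 was nearest to Slc7a7 (0.072) and Tfpi (0.089), and Il6st to Chid1 (0.16) and Prkag1 (0.18). These neighbours were drawn from 19938 genes over 4 arrays and are a description.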

How the data were processed

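RNA from 4 sorted bone marrow samples was measured on 4 arrays, 2 per genotype group. The deposited values are log2 expression values, 1 per probe set. They were made by the authors with RMA and Partek, without versions, per the submitters' processing notes. They were used as deposited, and 0 value columns were left unmatched. Which genome build and annotation lay behind the probe sets is not given in the sources used. Probe sets were named from the platform annotation, with symbols updated through Entrez numbers in RefSeq's table for GRCm38.p6: 21789 had 1 symbol, 1621 several and 12146 none, which gave 19938 genes. A gene with several such probe sets was represented by the brightest, by its mean over the 4 arrays.

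The groups were compared with limma 3.58.1 (lmFit and eBayes, genotype as the only term) in R 4.3.3, with Benjamini-Hochberg adjustment over 35556 probe sets and a threshold of 0.05. SE and 95% intervals are those of the moderated fit, and the intervals are not adjusted. Summed linear levels add 2 to the power of the log2 values. Arrays carry no read depth, so their number limits the precision. The procedure was tested on simulated data. Figures were drawn with matplotlib 3.10.9.

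The members and the 15 other lists (191 different genes, members included, 180 of them measured) were chosen with earlier results of these data known. The rule named all members, Gabpa, Kit, Ly6a and Flt3, and up to 3 genes of each other list by smallest unadjusted p; further genes are named by value and are said to be so or stand beside their list. The numbers of the replicates do not come with any shared litter, batch or day in the labels, so the fit used no block. Alternatives were cyclic loess, array medians subtracted, the brighter 50% of probe sets, an intensity trend, a replicate block, each array left out, and for lists the mean of a gene's probe sets.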

Additional observations from a re-analysis of the deposited data

How the results depend on the processing

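With limma, 0 probe sets, 0 of the 9 members and 0 genes of the other lists passed the adjusted threshold in the fit to 4 arrays and under each of the 9 alternatives, and the same held for the lists with the mean of a gene's probe sets. At an unadjusted p under 0.05 the fit to 4 arrays gave 2360 probe sets higher and 1865 lower, and the counts were 714 and 1590 without control replicate 1 and 1053 and 2295 without control replicate 2. Csf3r, Csf2rb, Il6st and Cd14 kept their sign under every alternative that gave a value (Cd14 is not among the brighter probe sets), and the other 5 members did not. Il3ra was −0.039 after cyclic loess and −0.052 with array medians subtracted, and Il6ra was −0.0040 after cyclic loess. With 1 array left out, Csf1r ran from −0.34 to 1.16, Csf2ra from −0.55 to 0.36, Csf2rb2 from −0.46 to 0.091 and Il3ra from −0.046 to 0.10. Each of these fits had fewer arrays, and a group of 1 array is assumed to vary like the other group. The replicate block left 0 calls, with 1341 probe sets higher and 1666 lower at an unadjusted p under 0.05, and gave Csf3r an adjusted p of 0.522. Same-numbered arrays' deviations from their group means correlated at −0.088 over probe sets, and the labels do not say whether the numbers pair the samples. The 2 arrays per group, and the lack of detection calls for dim probe sets such as Cd14's, limit what these values show.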
